A study of Mus musculus with 4 samples.

Results

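The urea cycle and ammonia genes of the liver are described here across age. The genes listed were Nags, Cps1, Otc, Ass1, Asl, Arg1, Glud1 and Gls2, and a probe set was taken where the platform annotation names 1 of these genes and no other. This gave 10 probe sets for 7 of the 8 genes, out of 45101 probe sets on the array and 18193 genes with a probe set of their own. Gls2, the liver-type glutaminase, has no such probe set in the annotation used and was not analysed here. All 7 measured genes passed the filter on level, which kept 11582 genes.

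The livers came from male C57BL/6J mice, an inbred strain, aged 4, 8, 13 and 21 months, and all ate a low-fat diet ad libitum. Each age is 1 oligonucleotide array of RNA combined from 6 livers, so a group is a single measurement, and no other diet or genotype enters. Ages cannot be tested against each other, the variation among mice is unknown, and the differences given are those between pools. Values are log2 expression values, on which a step of 1 equals 2-fold, with 2 decimals. In such bulk RNA, fewer cells of a type and less RNA per cell cannot be told apart.

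The urea cycle turns toxic ammonia into urea for excretion, and its complete form is found mainly in hepatocytes, above all in those near the portal vein. Nags makes N-acetylglutamate, the obligate activator of Cps1, and Cps1 and Otc work inside mitochondria, where ammonia enters the cycle and citrulline is formed. Ass1, Asl and Arg1 work in the cytosol, joining citrulline to aspartate, releasing arginine and splitting it into urea and ornithine. Glud1 and Gls2 free ammonia from glutamate and glutamine in mitochondria. Hepatocytes around the central vein instead bind remaining ammonia into glutamine through Glul.

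Over the 4 ages the 7 genes differed little. None was 1.5-fold higher or lower in any of the 6 pairs of ages, a size reached by 0.855% of all kept genes for 8 vs 4 months, 1.08% for 13 vs 8, 1.93% for 21 vs 13, 2.52% for 21 vs 4, 1.3% for 13 vs 4 and 3.36% for 21 vs 8. Between 4 and 21 months none passed 1.2-fold, which is 0.26 on the log2 scale. The one feature that most of them shared was a dip at 8 months. At that age 5 of the 7 had their lowest value, against 28.1% of all kept genes, and none had its highest, against 24.6%. From 4 to 8 months the difference was -0.09 for Otc, -0.14 for Cps1, -0.16 for Arg1 and -0.23 for Asl. For Ass1 it was -0.50 by its own, dimmer probe set and -0.19 by a brighter one shared with Gm5424.

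**Figure D1:**
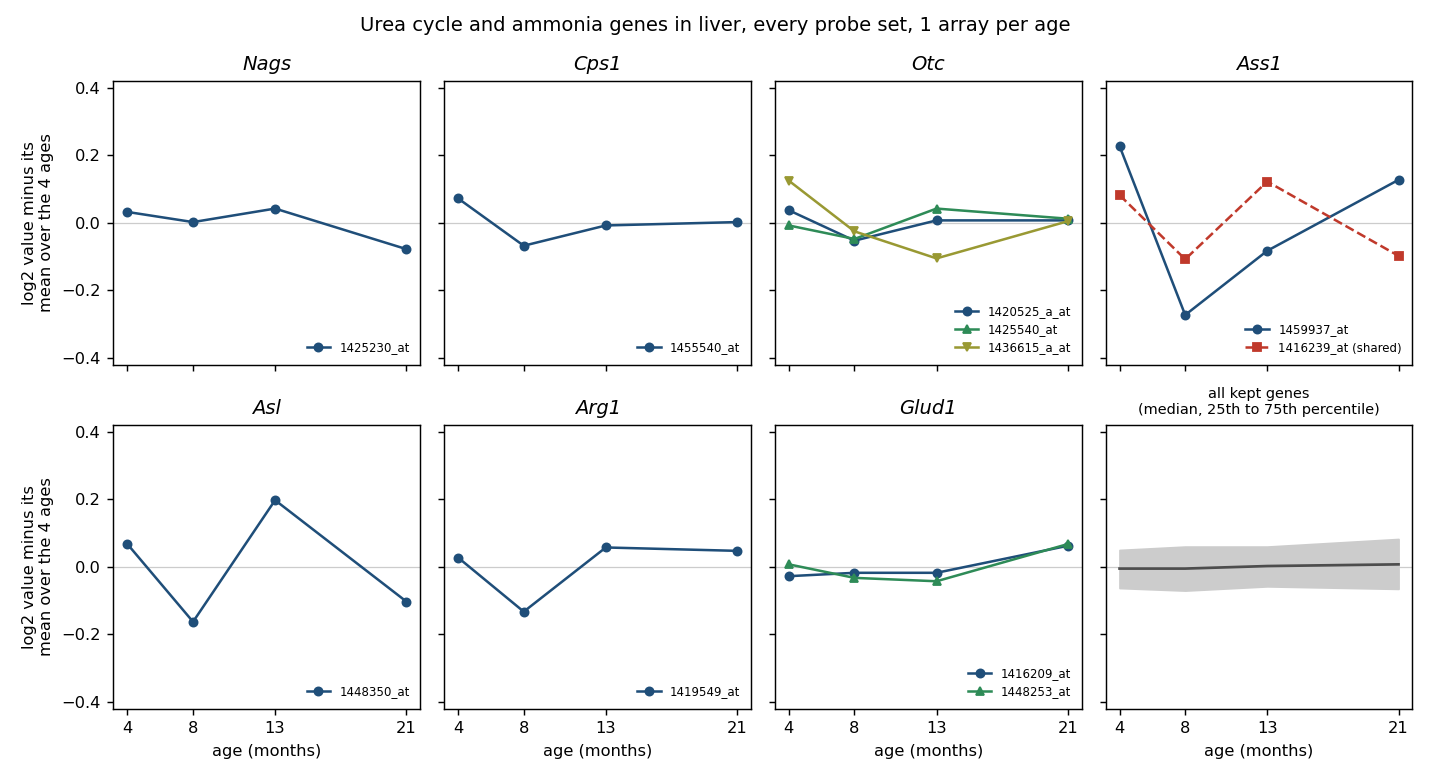
Each panel shows 1 gene: the log2 value of every probe set minus its own mean over the ages, against age in months, with 1 array per point. Ass1 has in red, dashed, the probe set it shares with Gm5424. The last panel gives the median and the 25th to 75th percentile over all kept genes. Cps1, Otc, Ass1, Asl and Arg1 have their lowest point at 8 months by their brightest own probe set, and Glud1 and Nags vary by 0.09 and 0.12.

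The precision of these arrays can be gauged from genes read by more than 1 probe set, although this says nothing of the spread between mice. Over 4795 genes with at least 2 probe sets above the filter, the differences of 8 vs 4 months read by the 2 brightest lay a median of 0.12 apart on the log2 scale, and for 1 gene in 10 more than 0.32 apart (the 90th percentile). For the other pairs of ages this median gap was 0.11 to 0.13. A difference of about 0.1 in a single gene is therefore no larger than the usual disagreement between probe sets of a gene. The 75th percentile of the gap for 8 vs 4 months was 0.21. In size, Otc at -0.09, Cps1 at -0.14, Arg1 at -0.16 and the shared Ass1 probe set at -0.19 lay under it. Asl at -0.23 lay under the 90th percentile of 0.32, and the own Ass1 probe set at -0.50 lay above it.

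Nags, the enzyme that makes the activator of the cycle, was at 7.67, 7.64, 7.68 and 7.56 at 4, 8, 13 and 21 months. The first 3 ages lay within 0.04 of each other and 21 months was the lowest, at a difference of -0.11 from 4 months. Cps1, which commits ammonia to the cycle, was at 12.45, 12.31, 12.37 and 12.38. Its highest value was at 4 months, and the 3 later ages lay within 0.07 of each other.

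Otc, which joins carbamoyl phosphate to ornithine, had 3 probe sets. The brightest was at 11.33, 11.24, 11.30 and 11.30, a range of 0.09 over the ages, and only 9.1% of kept genes had a narrower range. The second was at 10.23, 10.08, 10.00 and 10.11, with its lowest value at 13 months. The third was at 6.31, 6.27, 6.36 and 6.33. All 3 probe sets were lower at 8 than at 4 months, by -0.09, -0.15 and -0.04, but for 13 vs 8 months they differed in direction, at 0.06, -0.08 and 0.09.

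Ass1, which condenses citrulline with aspartate, was read in its own right by 1 probe set, at 7.15, 6.65, 6.84 and 7.05. The 8-month value was the lowest. The range of 0.50 was the widest among the own probe sets of the 7 genes, wider than in 91.7% of kept genes. A brighter probe set is annotated both to Ass1 and to Gm5424, a transcribed pseudogene, so by annotation it cannot be assigned to 1 of them alone. Its mean over the ages was 11.46, against 6.92 for the own probe set. Which of them reads Ass1 better was not tested. The shared probe set was at 11.54, 11.35, 11.58 and 11.36, a range of 0.23, narrower than that of Asl at 0.36. Both probe sets were lower at 8 than at 4 months, by -0.50 and -0.19, and higher at 13 than at 8 months, by 0.19 and 0.23. They parted at 21 vs 13 months, with 0.21 for the Ass1 probe set and -0.22 for the shared one, so the level of Ass1 at 21 months is uncertain in direction. They parted at 13 vs 4 months as well, at -0.31 and 0.04.

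Asl, which splits argininosuccinate into arginine and fumarate, was at 11.06, 10.83, 11.19 and 10.89. Its values at 8 and 21 months were low and those at 4 and 13 months high, the same order of low and high ages as in the shared Ass1 and Gm5424 probe set. The range was 0.36, wider than in 80.0% of kept genes. Arg1, the arginase that releases urea, was at 12.14, 11.98, 12.17 and 12.16. The 8-month value stood below the other 3, which lay within 0.03 of each other.

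Glud1, the glutamate dehydrogenase that supplies ammonia and 2-oxoglutarate, had 2 probe sets. They were at 11.30, 11.31, 11.31 and 11.39, and at 10.91, 10.87, 10.86 and 10.97. Both had their highest value at 21 months, 0.09 and 0.06 above 4 months. The dip at 8 months was not seen in the brighter probe set, at 0.01 from 4 months, and was -0.04 in the other.

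Regulatory sequence is shown for Ass1, whose own probe set had the widest range over age, and for Glud1. The range of Glud1, 0.09 by its brightest probe set, was shared with Otc as the narrowest. RefSeq start sites in the GRCm38.p6 build were at hand for 4 of the 8 genes, Ass1, Nags, Glud1 and Otc. The 250 bases before the start are given 5′ to 3′ on the plus strand. Each GC box (GGGCGG or its reverse complement) is in capitals. The Ass1 window is chr2:31470020-31470269 and the Glud1 window is chr14:34310477-34310726.
Ass1: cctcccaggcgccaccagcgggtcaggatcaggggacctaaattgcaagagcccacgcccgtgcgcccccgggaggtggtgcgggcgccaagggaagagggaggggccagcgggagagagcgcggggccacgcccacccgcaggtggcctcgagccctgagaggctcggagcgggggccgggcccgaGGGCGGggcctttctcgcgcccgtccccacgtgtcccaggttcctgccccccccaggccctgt
Glud1: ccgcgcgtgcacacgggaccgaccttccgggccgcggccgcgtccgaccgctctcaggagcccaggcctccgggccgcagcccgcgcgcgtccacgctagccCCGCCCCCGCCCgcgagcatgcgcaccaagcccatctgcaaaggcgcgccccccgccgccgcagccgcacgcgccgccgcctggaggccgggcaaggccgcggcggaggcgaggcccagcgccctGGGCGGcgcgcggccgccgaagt
Ass1 had 1 GC box, from base -63 to -58 before the start, and Glud1 had 3, of which 2 lie next to each other from -148 to -137. Nags had 2 and Otc none. Of 32851 mouse promoter windows of this length, 32.7% hold at least 1. G and C made up 75.6% of the Ass1 window, 82.0% of that of Glud1, 55.6% of that of Nags and 43.6% of that of Otc, against a median of 52.4% over all windows. Searched on both strands, the C/EBP-type motif TTGCNNAA, the cyclic AMP response core TGACG, the glucocorticoid receptor core AGAACA and the TATA box TATAAA were in none of the 4 windows. They occur in 9.56%, 17.8%, 16.1% and 12.4% of all windows. A match or its absence describes these letters only.

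Between 4 and 8 months the genes of the cycle were lower in nearly every case. Of the 7 genes 6 were lower, against 48.7% of all kept genes, and the median difference was -0.14, against 0.00 over all kept genes. Of the 6, 1 was at least 1.2-fold lower, Ass1, and this size was reached by 5.3% of kept genes. Ass1 was at -0.50, a 1.41-fold higher level at 4 months, and only 0.70% of kept genes had a lower difference. By the probe set shared with Gm5424 the fold was 1.14, and then none of the 7 passed 1.2-fold. Asl was at -0.23, Arg1 at -0.16, Cps1 at -0.14, Otc at -0.09 and Nags at -0.03. The kept genes from the 25th to the 75th percentile lay between -0.09 and 0.09, so Asl, Arg1 and Cps1 lay outside this band and Otc at its edge.

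Other cells of the liver differed between these pools too. All 10 macrophage markers were lower at 8 than at 4 months, from -0.19 for Lyz2 to -1.46 for Marco, and their mean log2 level was 7.49, 7.01, 7.63 and 8.28 at the 4 ages. Hepatocyte markers were close to level, with a median of -0.03 over 8 genes, 7 of them lower. Of the periportal markers 6 of 7 were lower, with a median of -0.05 and 3 at least 1.2-fold lower. The 3 were Aldh1b1 at -0.56, Hal at -0.36 and Ctsc at -0.29. The rest were near level, with Pigr at -0.05, Cyp2f2 at -0.04, Pck1 at -0.02 and Hsd17b13 at 0.02, so the list did not move as a whole. Of the pericentral markers 5 of 11 were lower, with a median of 0.01. Over all kept genes 48.7% were lower and 5.3% at least 1.2-fold lower. Markers of sinusoidal endothelium had a median of -0.05 over 7 genes, of stellate cells 0.02 over 6 and of neutrophils -0.09 over 5. One neutrophil marker went far the other way: Ltf, lactoferrin, was at 3.28, 5.22, 3.53 and 3.56, higher by 1.94 at 8 than at 4 months, and the mean of the 5 was 4.51 at 4 and 4.82 at 8 months. The 3 of 6 lymphocyte markers that passed the filter were all higher at 8 than at 4 months, with a median of 0.34, though dim, at a mean of 4.22 at 8 months. Of the duct markers 2 of 5 passed the filter, with a median of 0.09. Of the kidney and gut markers 2 of 7 passed, both higher at 8 months, Fabp2 by 0.29, with a median of 0.205. The duct keratin Krt19, below the filter on average and singled out after its values were seen, was at 3.48, 4.99, 3.32 and 2.99, high at 8 months alone. The part of these cells in the dip of the urea cycle genes was not tested. Neither the hour of collection nor the time since feeding is stated in the sources used here, and both cannot be told apart from age.

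Between 8 and 13 months the direction was the opposite. No gene was lower, 6 of 7 were higher and Glud1 was equal, where 50.2% of kept genes were higher. This step shares the 8-month array with the step before, so it is not a second observation of the dip. The median was 0.06, against 0.01 over all kept genes. Asl was higher by 0.36, or 1.28-fold, and was the 1 gene past 1.2-fold, a size reached by 6.53% of kept genes, while 4.91% were as much lower. Ass1 and Arg1 were both higher by 0.19, Cps1 and Otc by 0.06 and Nags by 0.04. At 13 months Asl, Arg1 and Nags had their highest values, within 0.13 of those at 4 months.

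Between 13 and 21 months the genes showed no common direction. Of the 7 genes 3 were lower, 3 higher and 1, Otc, equal, with a median of 0.00, and 46.4% of kept genes were lower. Asl was lower at -0.30, the 1 gene at least 1.2-fold lower, which 6.37% of kept genes were. None was at least 1.2-fold higher, as 9.12% of kept genes were. Nags was at -0.12, Arg1 at -0.01, Cps1 at 0.01, Glud1 at 0.08 and Ass1 at 0.21, with the shared probe set of Ass1 at -0.22.

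Over the whole span from 4 to 21 months 5 of 7 genes were lower, where 45.2% of kept genes were, with a median of -0.07 against 0.01. None was 1.2-fold lower or higher, sizes reached by 5.49% and 9.01% of kept genes. Asl was at -0.17, Nags at -0.11, Ass1 at -0.10, Cps1 at -0.07 and Otc at -0.03, and Arg1 and Glud1 were higher by 0.02 and 0.09. Asl had the lowest difference of the 7, and 12.4% of kept genes were lower still. Set beside these, 13 vs 4 months gave 3 lower, against 45.5% of kept genes, and 4 higher, with a median of 0.01. Ass1 was the 1 gene at least 1.2-fold lower there (5.31% of kept genes), and none was as much higher (5.96%). For 21 vs 8 months 6 were higher, against 51.7% of kept genes, and 1 lower, Nags at -0.08, with a median of 0.07. Ass1 at 0.40 was the 1 gene at least 1.2-fold higher (11% of kept genes), and none was as much lower (7.95%). With the shared probe set Ass1 was under 1.2-fold in both comparisons.

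**Figure D2:**
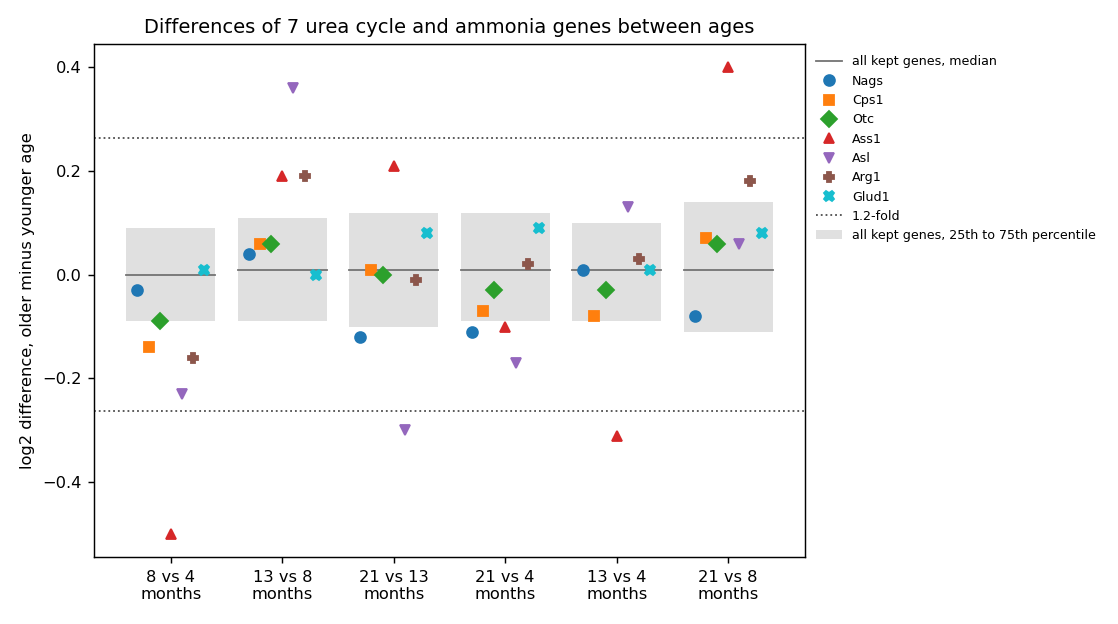
For each pair of ages the points give the log2 difference of the 7 genes, older minus younger, by the brightest own probe set. Grey boxes span the 25th to 75th percentile of all kept genes with their median as a line, and dotted lines mark 1.2-fold. Only Ass1 and Asl pass a dotted line, and for 8 vs 4 months 6 of 7 points lie below 0.

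The genes around the cycle were taken from 6 lists with 92 distinct genes, of which 76 passed the filter. At 8 vs 4 months 55 of the 76 were lower, where 48.7% of kept genes were, and 19 higher. The median was -0.08, against 0.00 over all kept genes. Of the 76, 12 were at least 1.2-fold lower and 1 higher, against 5.3% and 5.38% of kept genes. At 13 vs 8 months 58 were higher and 18 lower, where 50.2% of kept genes were higher. Of the 76, 11 were at least 1.2-fold higher and 0 as much lower, against 6.53% and 4.91% of kept genes. At 21 vs 4 months 39 were lower, where 45.2% of kept genes were, and 35 higher, with a median of -0.01. At least 1.2-fold lower were 8 and higher 3, against 5.49% and 9.01% of kept genes.

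Transporters and side reactions of the cycle stayed within 1.5-fold at every age. Of 11 kept genes none was 1.2-fold lower or higher at 8 vs 4 months, sizes reached by 5.3% and 5.38% of all kept genes. Slc25a15, the mitochondrial ornithine and citrulline exchanger that serves Otc, was at 10.51, 10.34, 10.42 and 10.48, lowest at 8 months like the enzymes. Slc7a2, an arginine transporter, was at 9.82, 9.56, 9.79 and 9.52, with low values at 8 and 21 months as in Asl. Slc25a22, a mitochondrial glutamate carrier, was at 9.49, 9.49, 9.57 and 9.26, and only its 21-month value stood apart. Oat, which takes ornithine out of the cycle and is pericentral, was at 11.54, 11.67, 11.89 and 11.75, with 4 months the lowest.

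Among 13 kept genes of glutamine and ammonia handling, 1 was at least 1.2-fold lower at 8 vs 4 months, against 5.3% of kept genes, and at 21 vs 4 months 2 were at least 1.2-fold higher, against 9.01%. Got1, the cytosolic aminotransferase that can supply aspartate to Ass1, was at 9.75, 9.23, 9.86 and 9.78. Its dip at 8 months, at -0.52, was close in size to that of the own Ass1 probe set, at -0.50. The shared Ass1 and Gm5424 probe set had a smaller dip, at -0.19. Aqp8, a water channel that also passes ammonia, was at 7.42, 7.25, 7.34 and 8.01, and 21 months alone was high. The pericentral partners of the cycle are given next, singled out after their values were seen. Glul, the glutamine synthetase, was at 10.54, 10.61, 10.70 and 10.67, and Slc1a2, a glutamate transporter, at 8.26, 8.28, 8.55 and 8.32. Both had their lowest value at 4 months. Rhbg, an ammonia channel, was at 6.31, 6.24, 6.69 and 6.74, lowest at 8 months by 0.07, with both later ages above both earlier ones. Glul, Slc1a2, Rhbg and Oat were all above their 4-month values at 13 months, by 0.16, 0.29, 0.38 and 0.35, and at 21 months, by 0.13, 0.06, 0.43 and 0.21. Over all 11 kept pericentral markers the medians were 0.04 and -0.04, so this did not extend to the list.

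The next list covers ammonia-releasing amino acid catabolism, though not every enzyme in it frees ammonia itself. Of its 20 kept genes 16 were lower at 8 vs 4 months, against 48.7% of all kept genes, with a median of -0.09. At least 1.2-fold lower were 4, against 5.3% of all kept genes. Tat, the tyrosine aminotransferase, was at 11.47, 10.81, 11.07 and 11.12, with 4 months above the 3 later ages. The histidine pathway, singled out after its values were seen, was lowest at 8 months in all 4 enzymes. Hal, which frees ammonia from histidine, was at 9.50, 9.14, 9.43 and 9.52. Amdhd1 was at 9.13, 8.83, 9.06 and 9.18 and Uroc1 at 7.71, 7.48, 7.66 and 7.57. The dip was smallest in Ftcd, the last step, at 10.19, 10.07, 10.10 and 10.27.

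Regulators of these genes included 5 of 17 that were at least 1.2-fold lower at 8 vs 4 months and none higher, against 5.3% and 5.38% of all kept genes. Ppargc1a, a coactivator of the fasting response, was at 6.08, 5.50, 5.93 and 5.83. Cebpd was at 6.58, 6.21, 6.49 and 6.71, and Foxa1, a liver forkhead factor, at 7.88, 7.89, 7.88 and 7.37, low at 21 months and level before. Hnf4a differed by at most 0.15 over the ages, and Sirt5, a mitochondrial deacylase of which Cps1 is a known substrate, by 0.17. Of 9 genes that respond to glucagon, fasting or glucocorticoid, 4 were at least 1.2-fold lower at 8 vs 4 months and 1 higher. The shares of all kept genes were 5.3% and 5.38%. Among the lower genes, Tat and Ppargc1a were also counted in the lists above. Tsc22d3, a glucocorticoid target, was at 8.54, 7.70, 7.83 and 7.83 and Igfbp1 at 10.76, 10.08, 10.42 and 10.35. In both, 4 months was the high age and the 3 later ages were low. Fkbp5 and Per1, of the same list, lacked this pattern. They were highest at 13 months, and each was at -0.09 for 8 vs 4 months. Pdk4, a fasting-induced kinase, was at 4.69, 5.23, 5.17 and 4.19, and Pck1, which is induced by glucagon, differed by at most 0.05.

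**Figure D3:**
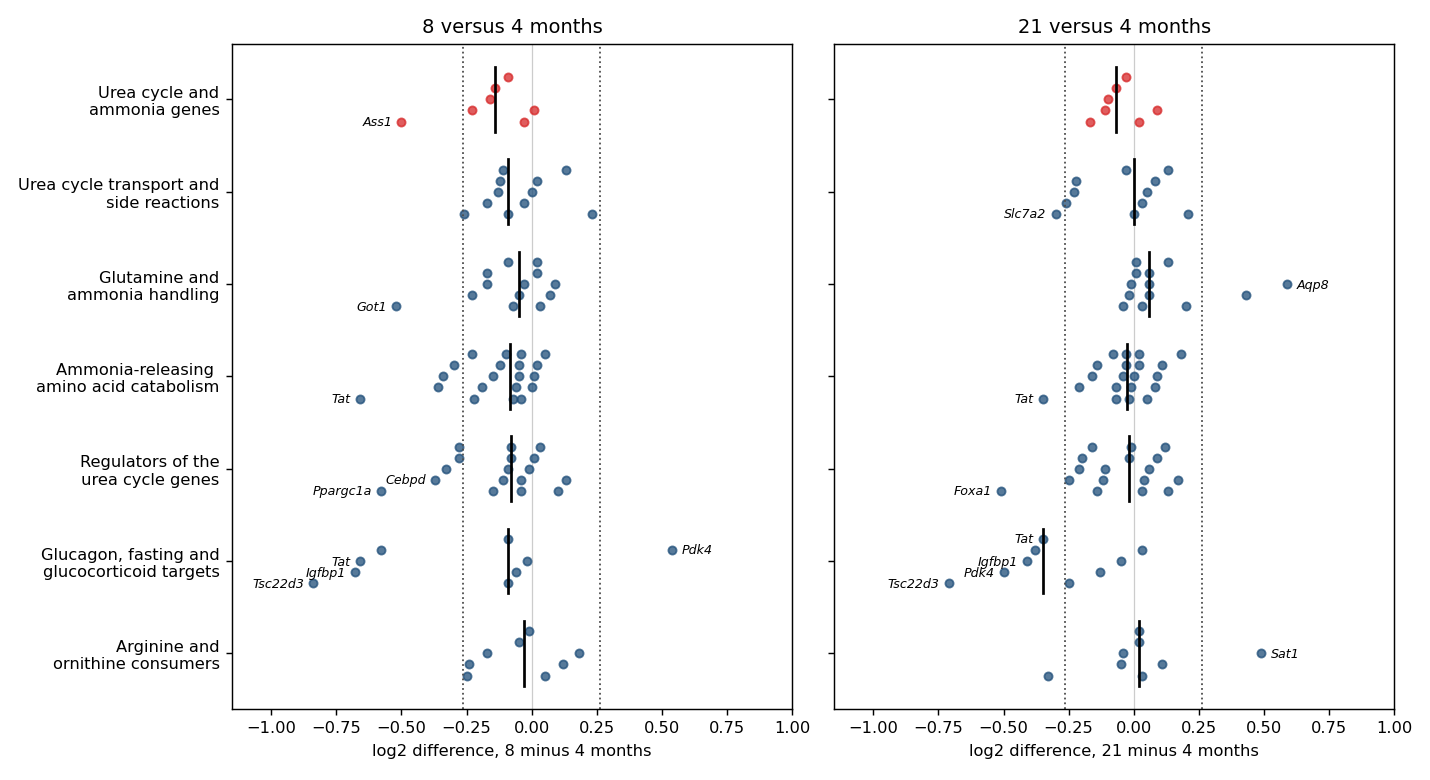
Each point is 1 gene above the filter, placed by its log2 difference for 8 vs 4 months (left) and 21 vs 4 months (right). The urea cycle and ammonia genes are in red, the 6 surrounding lists in blue, black bars are medians and dotted lines mark 1.2-fold. At 8 vs 4 months the median of the red points is -0.14, and those of the 6 lists lie from -0.09 to -0.03.

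The genes nearest in age profile were sought for Ass1 and Asl, which had the widest ranges by their own probe sets. The measure was the root mean square distance between log2 values centred on each gene's own mean, over 4 arrays, among genes with a range at least 50% of that of Ass1 or Asl. For Ass1, out of 4806 genes, the nearest were Nucb2, Kit, Rsrc1, Thumpd2 and Lrmp, at distances of 0.018 to 0.041. For Asl, out of 7345 genes, they were Rcc1l, Hnf4aos, Ptpn21, Ugcg and Selenon, at 0.013 to 0.023. Nucb2, Thumpd2, Lrmp and Selenon were dim, near the filter level of 3.74. Thumpd2, at 4.04, 3.58, 3.66 and 3.90, was below that level at 8 and 13 months. The genes near Ass1 rest on its own probe set, from which the shared one parted at 21 vs 13 months. Rcc1l was at 6.33, 6.07, 6.43 and 6.13, with the same 2 low and 2 high ages as Asl. Only 4 points enter each profile.

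**Figure D4:**
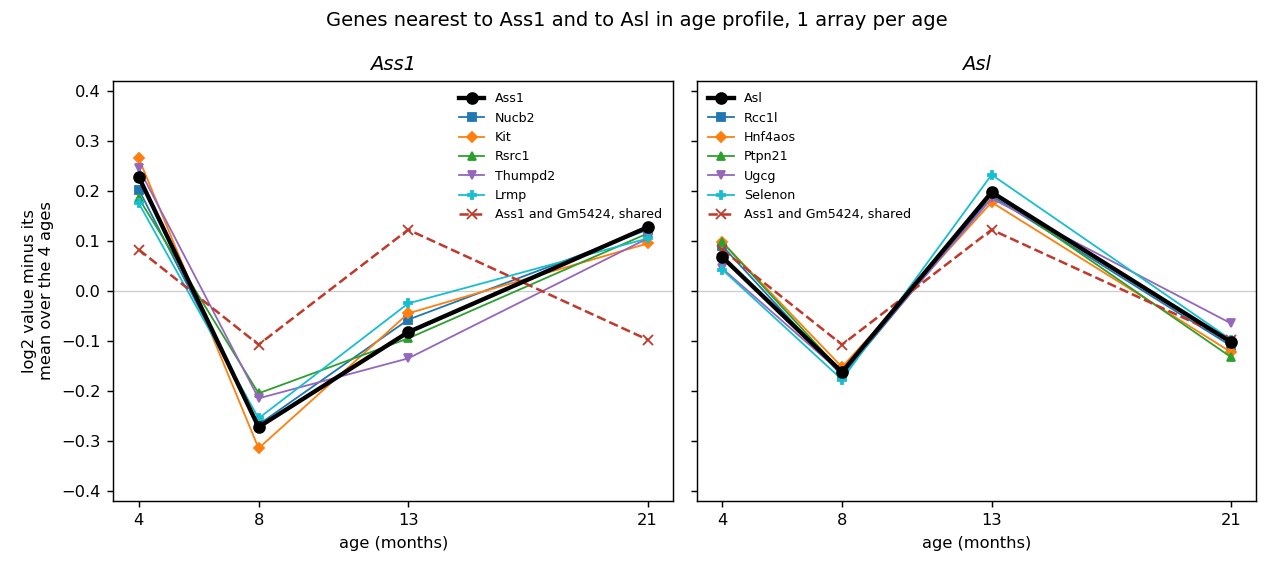
The panels show Ass1 (left) and Asl (right) in black with the 5 genes nearest in profile, as log2 values minus each gene's mean against age in months, and the probe set shared by Ass1 and Gm5424 dashed. The shared probe set follows the order of Asl, high at 13 and low at 8 and 21 months. It lies apart from the Ass1 curve at all 4 ages, and from 13 to 21 months it falls where the Ass1 curve rises.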

How the data were processed

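Liver RNA was labelled with biotin and measured on 4 oligonucleotide arrays, 1 per age. The authors deposited log2 expression values of 45101 probe sets, made with RMA per the submitters' processing notes; its version, and whether other arrays entered the normalization, is not stated in the sources used here. RMA gives all arrays a similar distribution, so a general rise or fall in a pool cannot be seen, and changes of weakly hybridising probe sets can come out too small. Detection calls played no role.

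Gene names came from the platform annotation. Of 45101 probe sets 34945 had 1 symbol and were not among the 64 controls, and 34741 of these matched a RefSeq gene table of GRCm38.p6, with 0 symbols changed. Per gene the probe set with the highest mean was used, and genes with a mean of at least 3.74, the median of all probe set means, were kept. The members' other probe sets are given beside it. Array medians were 3.73 to 3.76, and the 3′ minus 5′ difference of Gapdh controls was 0.11 to 0.21. For Actb controls it was larger, at 1.01 to 1.16. Both controls had their highest difference on the 8-month array, at 0.21 and 1.16. The part of this in the values at 8 months was not tested.

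No test was run. Genes were counted by size, at least 1.2-fold and 1.5-fold, and set beside the same share over all kept genes. The counting was tested on simulated data. The members and lists were chosen with earlier results of these data known. All members are named; of each list, genes past 1.5-fold in any comparison, or otherwise the 3 with the widest range, and others were named after their values were seen. Alternatives were the mean over probe sets, median centring, quantile normalization, cyclic loess, a filter at the 75th percentile or none and, added after the data were seen, the shared Ass1 probe set. Normalizations were run in R 4.3.3 with limma 3.58.1, and everything else in Python 3.11.15 with pandas 2.3.3 and numpy 2.4.6, with figures from matplotlib 3.10.9.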

Additional observations from a re-analysis of the deposited data

How the results depend on the processing

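For 8 vs 4 months the median of the 7 genes and the count of 6 lower differed by no more than 0.1 and by no more than 1.5 times, respectively, under each alternative. With 1.5-fold in place of 1.2-fold the members counted were 0 in every comparison. With the shared probe set for Ass1, the count at least 1.2-fold lower was 0 for 8 vs 4 and for 13 vs 4 months, the count higher was 0 for 21 vs 8 months, and the Ass1 difference for 13 vs 4 months turned to 0.04. For 13 vs 8 months 1 member was lower, in place of 0, with the mean over probe sets, quantile normalization and cyclic loess. For 21 vs 13 months 5 were lower with cyclic loess, in place of 3, and for 21 vs 8 months 2 with quantile normalization, in place of 1. The added one was Asl, at -0.0238, so the lowest value of Asl was then no longer at 8 months. With cyclic loess Asl and Otc were nearly level between 8 and 21 months, at 0.0004 and 0.0003. The median for 13 vs 4 months, 0.01, became -0.02 with the mean over probe sets and -0.0093 with cyclic loess. Of the surrounding genes 7 were at least 1.2-fold higher for 13 vs 8 months with quantile normalization or cyclic loess, in place of 11, and for 8 vs 4 months 3 with no filter and 0 with the filter at the 75th percentile, in place of 1. Apart from the shared probe set, whose readings differ, the cause was not tested. No array could be left out within an age. No paired analysis was possible because each age has 1 array.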

Other observations

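The list of arginine and ornithine use outside the cycle had 8 kept genes. None was 1.2-fold lower or higher at 8 vs 4 months, sizes reached by 5.3% and 5.38% of all kept genes. At 21 vs 4 months their median was 0.02, and 1 was at least 1.2-fold higher and 1 lower, sizes reached by 9.01% and 5.49% of all kept genes. Sat1, which starts polyamine breakdown, was at 7.66, 7.49, 7.67 and 8.15, and 21 months alone was high. Odc1, which makes putrescine from ornithine, was at 8.00, 8.12, 7.92 and 7.67, with its lowest value at 21 months. Gamt, the last enzyme of creatine synthesis, was at 8.83, 8.58, 8.91 and 8.94, and Gatm, the enzyme before it, at 5.80, 5.56, 5.61 and 5.75, both lowest at 8 months. Arg2, the mitochondrial arginase of other tissues, was below the filter at every age, at 2.77, 2.70, 2.67 and 2.79.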
